A study of Mus musculus with 42 samples.

Results

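Mt1, Mt2, Mt3 and Slc30a1 are the metallothioneins and the zinc exporter described here, followed over the differentiation of mouse embryonic stem cells (ESCs) towards anterior definitive endoderm (ADE) and under inhibition of the Polycomb enzyme EZH2. The members are the probes whose RefSeq accession belongs to these genes. Each gene has 1 probe with 1 spot, so that 4 of the 55681 probes on the array and 4 of its 22201 RefSeq genes are members. The genes were chosen from their levels in these same 14 groups, so their levels and differences are descriptions and carry no test.

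Metallothioneins are small cysteine-rich proteins that bind zinc and copper and buffer the free metal in a cell. Their genes are transcribed by MTF1, a transcription factor that is activated by zinc and binds short metal response elements in promoters, and Slc30a1, which moves zinc out across the plasma membrane, is a further known target of MTF1. Metallothionein transcripts are also known to rise with glucocorticoids and oxidative stress. Mt1 and Mt2 are expressed in many tissues, while Mt3 is best known from brain and Mt4 from stratified epithelia.

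All samples are dual reporter mouse ESCs, in which GFP reports Gsc and RedStar reports Hhex, or cells differentiated from them, and each of the 14 groups has 3 arrays. The untreated series holds ESCs grown in ESC medium with LIF, unsorted day 2 (d2) cells, and cells sorted on the reporters: G- and G+ (without and with GFP) at d3 and d4, G-, Glow and Ghigh at d5, and G+H- and G+H+ (GFP-positive, without and with RedStar) at d6. The EPZ6438 series holds d6 cultures of 3 regimens, for which the labels name no sort: Control had DMSO throughout, ADE_EPZ had DMSO before and EPZ6438 at 2.5 µM during differentiation, and ES_EPZ had EPZ6438 before and DMSO during differentiation. EPZ6438 inhibits EZH2, the histone H3 lysine methyltransferase of Polycomb repressive complex PRC2. The design text gives 3 independent experiments per condition, and all cells come from the same reporter line. Levels are the deposited log2 intensities, on which a step of 1 doubles the signal, and they are compared within a probe only.

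The labels were set against marker lists. The mean log2 level of the 9 pluripotency markers was 13.15 to 13.67 on the ESC arrays and 8.26 to 8.49 on the d6 G+H+ arrays, and that of the 9 definitive endoderm markers was 6.76 to 6.82 and 13.21 to 13.37. Gsc and Sox17 were not well above background on any ESC array and stood at 13.32 and 12.6 in d6 G+H+ cells. The scanner software placed 24504 to 40428 probes of an array well above its background. The 4 members were well above background on all 42 arrays, and none of their 168 values was saturated or marked as an outlier by the scanner software.

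The genes of the family lie side by side on mouse chromosome 8 in the order Mt4, Mt3, Mt2 and Mt1, with 1 further annotated gene, the lncRNA Gm39227, between Mt3 and Mt2, while Slc30a1 lies on chromosome 1. Their promoters are shown because Mt1, Mt2 and Slc30a1 moved over the groups and Mt3 hardly did. Sequences are those of RefSeq for GRCm38.p6, which held all 4 genes. The 250 bases before the annotated start of each gene are printed 5′ to 3′ on the strand of the gene, with the core of the metal response element, TGCACNC or TGCGCNC on either strand, in capitals. The windows are chr8:94178839-94179088 for Mt1, chr8:94172368-94172617 for Mt2, chr8:94152357-94152606 for Mt3 and chr1:191906531-191906780 for Slc30a1, all on the plus strand.
Mt1: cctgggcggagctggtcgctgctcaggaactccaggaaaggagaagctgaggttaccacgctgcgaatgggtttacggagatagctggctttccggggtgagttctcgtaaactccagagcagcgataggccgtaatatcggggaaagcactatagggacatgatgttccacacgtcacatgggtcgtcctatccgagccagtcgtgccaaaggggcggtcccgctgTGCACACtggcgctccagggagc
Mt2: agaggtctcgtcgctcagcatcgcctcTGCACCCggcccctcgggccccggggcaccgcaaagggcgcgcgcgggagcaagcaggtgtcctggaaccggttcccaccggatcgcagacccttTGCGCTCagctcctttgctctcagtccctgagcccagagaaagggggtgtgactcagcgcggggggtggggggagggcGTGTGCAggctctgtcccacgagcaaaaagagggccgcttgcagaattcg
Mt3: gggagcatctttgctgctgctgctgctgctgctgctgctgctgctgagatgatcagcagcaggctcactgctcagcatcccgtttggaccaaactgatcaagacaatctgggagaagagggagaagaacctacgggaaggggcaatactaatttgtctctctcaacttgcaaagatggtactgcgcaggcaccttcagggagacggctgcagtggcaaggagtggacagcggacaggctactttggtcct
Slc30a1: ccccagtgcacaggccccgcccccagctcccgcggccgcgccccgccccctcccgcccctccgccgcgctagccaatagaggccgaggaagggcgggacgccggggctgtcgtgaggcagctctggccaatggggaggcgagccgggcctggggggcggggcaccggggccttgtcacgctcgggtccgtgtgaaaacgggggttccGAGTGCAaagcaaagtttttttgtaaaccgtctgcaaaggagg

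Over the 300 bases that run from 250 before to 50 after the start, Mt2 held 4 matches to these cores, whose first bases stand at positions -223, -128, -50 and 5 relative to the start. Mt1 held 3, at positions -23, 3 and 21. Slc30a1 held 2, at -43 and 31, and Mt3 held 1, at 28, with none in the printed bases. Of the 32851 promoters of this length, 25.7% held at least 1 match, 1.31% at least 3 and 0.295% at least 4, with overlapping matches counted as 1. A match describes the letters only. The annotated start may differ from the start used in these cells, and matches beyond the window were not counted. The counts therefore do not rank the genes. The probe sequences were not available, so cross-hybridisation between Mt1 and Mt2 was not tested.

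Replicate 3 of the untreated groups was often low for Mt1, Mt2 and Slc30a1, which is described before any comparison. Replicates 1 and 2 were hybridised on 3 slides and scanned on the same day, and replicate 3 on 2 slides scanned on another. Replicate 3 was below both other replicates in 9 of the 11 untreated groups for Mt1, in 8 for Mt2, in 6 for Mt3 and in 9 for Slc30a1. The median distance of replicate 3 from the mean of the others was -1.08 for Mt1, -1.6 for Mt2, -0.25 for Mt3 and -0.93 for Slc30a1 on the log2 scale. For comparison, 15227 RefSeq probes were above background on all untreated arrays. In the median such a probe had replicate 3 below both others in 4 groups, and 6.51% had this in 10 or more. No member reached 10 groups. The share of probes at the counts of the members was not computed and cannot be smaller than this. A median distance under -1, as for Mt1 and Mt2 but not for Mt3 and Slc30a1, was found for 0.217% of these probes. Replicate 3 and its slides and scan day coincide, so that experiment and scan cannot be told apart. Fitted differences of Mt1 and Mt2 between untreated groups are given with and without replicate 3.

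**Figure D1:**
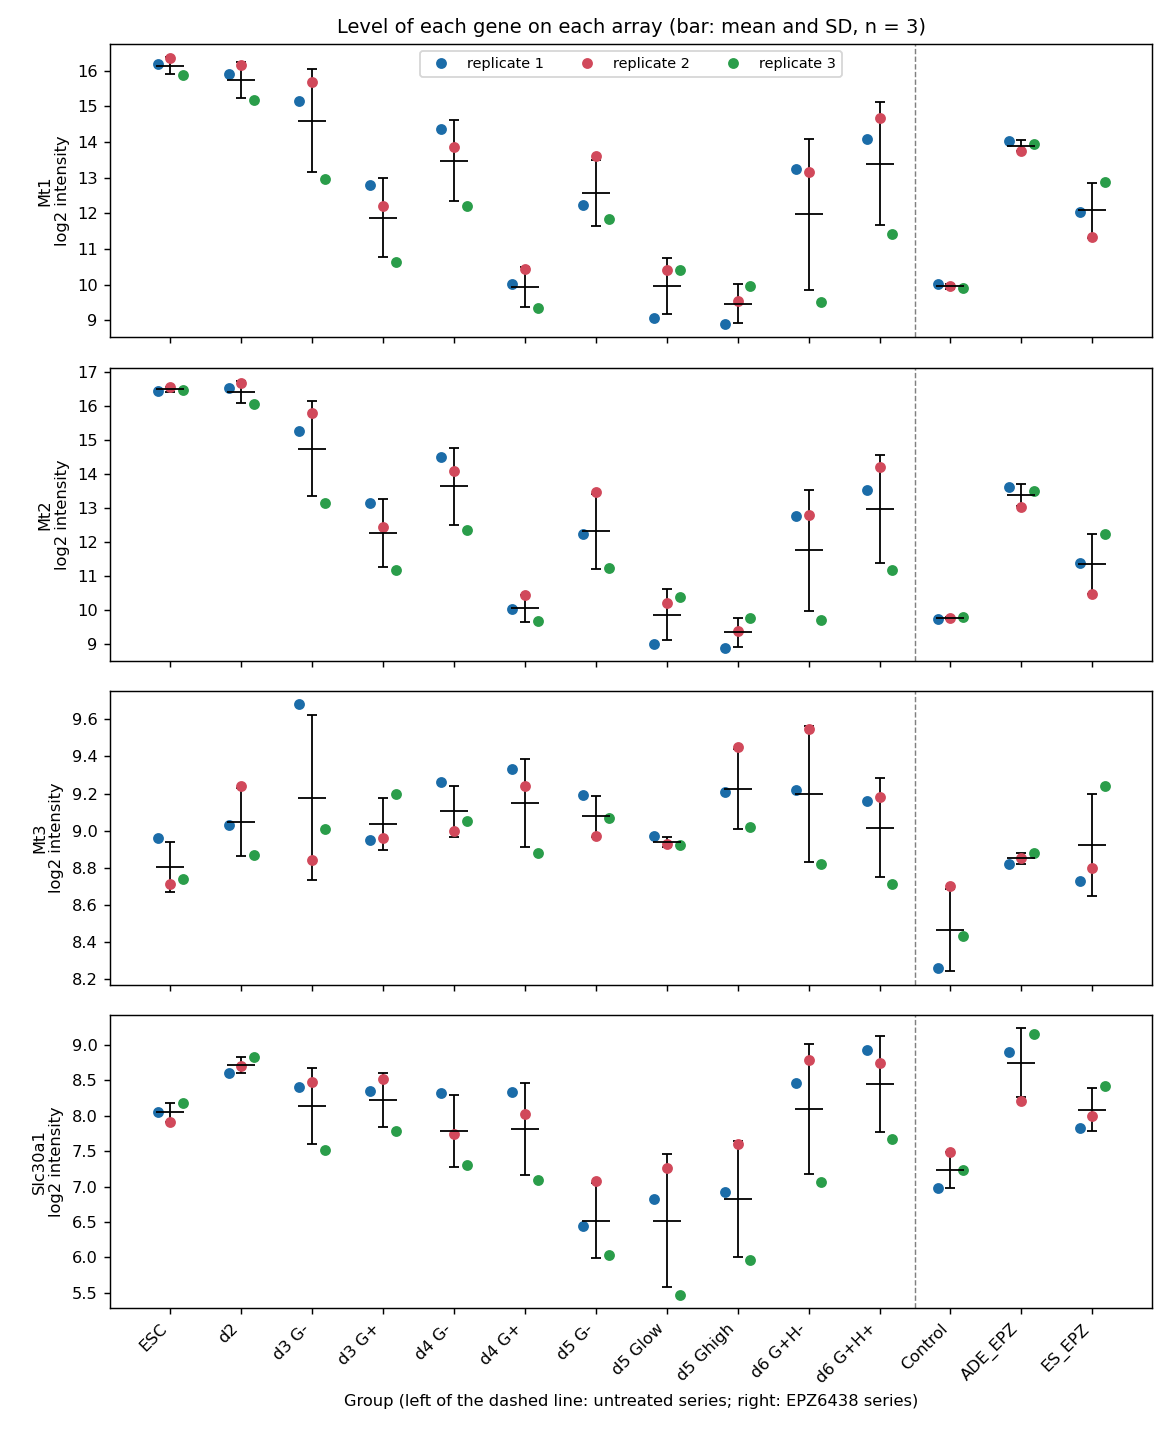
Log2 intensity of Mt1, Mt2, Mt3 and Slc30a1 (vertical axes, 1 panel per gene with its own scale) in the 14 groups (horizontal axis), with a point per array coloured by replicate number and the mean and SD of 3 arrays. Mt1 and Mt2 run from means of 16.14 and 16.49 in ESCs down to 9.46 and 9.34 in d5 Ghigh cells, Mt3 stays between 8.47 and 9.23, and replicate 3 is often the lowest point of an untreated group.

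Mt1 and Mt2 were brightest in ESCs. Mt1 was at 16.19, 16.34 and 15.88 on the ESC arrays of replicates 1, 2 and 3 and at 15.91, 16.15 and 15.18 on the d2 arrays. Mt2 was at 16.44, 16.57 and 16.46 in ESCs and at 16.53, 16.67 and 16.05 at d2. The ESC and d2 arrays overlapped for both genes, and the difference of d2 from ESC was -0.39 for Mt1 (SE 0.79, n = 3 and 3) and -0.08 for Mt2 (SE 0.74). It was -0.24 and 0.09 over replicates 1 and 2 alone and -0.7 and -0.42 in replicate 3. Slc30a1 was at 8.05, 7.92 and 8.18 in ESCs and at 8.61, 8.71 and 8.83 at d2. All d2 arrays lay above all ESC arrays for the exporter, by 0.67 on average (SE 0.44), as they did for 19.8% of the 15509 genes above background in a group. Mt3 differed by 0.24 (SE 0.19). None of the 4 members met the rule used for calls (for members, which were chosen from these arrays, the rule only describes how a difference stood to the spread and is no test), an absolute log2 difference of at least 1.5 with an adjusted p of at most 0.01, which 0.387% of the 22201 RefSeq genes met as higher and 1.36% as lower at d2.

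From d3 to d5 Mt1 and Mt2 were lower in the GFP-positive cells than in the G- cells of the same day. The G- cells held Gsc transcript too, at means of 8.23, 9.3 and 9 at d3, d4 and d5, well above background on all arrays. At d3, Mt1 was at 15.15, 15.67 and 12.96 in G- cells and at 12.79, 12.20 and 10.64 in G+ cells. Mt2 was at 15.28, 15.81 and 13.16 in G- cells and at 13.15, 12.45 and 11.18 in G+ cells. The arrays of the populations did not overlap, but replicate 3 of the G- cells and replicate 1 of the G+ cells nearly met for both genes. Within the replicate numbers the difference of the G+ from the G- array was -2.36, -3.47 and -2.32 for Mt1 and -2.13, -3.36 and -1.98 for Mt2. The mean difference was -2.72 for Mt1 (SE 0.79, 6.57-fold) and -2.49 for Mt2 (SE 0.74, 5.6-fold) and neither met the rule. Over replicates 1 and 2 alone it was -2.91 and -2.74, and in replicate 3 it was -2.32 and -1.98. Leaving out 1 array gave -3.53 to -2.1 for Mt1 and -3.28 to -1.95 for Mt2, and both met the rule in 1 of these 6 fits, without replicate 3 of the G- cells. With the replicate number as a block, which fits the shared deviations of these samples, the differences were the same, their SE was 0.61 and 0.58, and both met the rule. That was 1 of 11 other settings in which they did, and with the slide as a random (-2.69, SE 0.68, and -2.45, SE 0.64) or a fixed block they did not. At this day 0.73% of genes were called higher and 1.12% lower, and 15.2% had all G+ arrays below all G- arrays. Nothing is read from the members against these shares, at any day, because the rule that chose them used the same arrays.

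At d4, Mt1 was at 14.36, 13.85 and 12.19 in G- cells and at 10.02, 10.45 and 9.33 in G+ cells. Mt2 was at 14.49, 14.08 and 12.34 in G- cells and at 10.03, 10.44 and 9.67 in G+ cells. No G+ array reached the lowest G- array for either gene. The difference was -3.53 for Mt1 (SE 0.79, 11.6-fold) and -3.59 for Mt2 (SE 0.74, 12-fold), and both met the rule for calls, as did 0.824% of all genes upwards and 1.46% downwards, while 18.6% did not overlap in the lower direction. It was -3.87 and -4.05 over replicates 1 and 2 alone and -2.85 and -2.67 in replicate 3. Leaving out replicate 1 or 2 of the G- cells, or replicate 1 or 3 of the G+ cells, put both genes outside the rule, at -3.09 to -3.58 for Mt1 and -3.16 to -3.58 for Mt2. Mt1 also missed the rule with the arrays of the untreated series alone (SE 0.86) and over replicates 1 and 2 alone.

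At d5, Mt1 was at 12.24, 13.60 and 11.84 in G- cells, at 9.06, 10.41 and 10.42 in Glow cells and at 8.89, 9.54 and 9.96 in Ghigh cells. Mt2 was at 12.25, 13.46 and 11.25 in G- cells, at 9.0, 10.21 and 10.39 in Glow cells and at 8.89, 9.37 and 9.76 in Ghigh cells. Every Glow and Ghigh array lay below every G- array, and Glow and Ghigh overlapped. The mean of Glow and Ghigh differed from G- by -2.85 for Mt1 (SE 0.68) and by -2.72 for Mt2 (SE 0.64), and both met the rule for calls, beside 0.513% of genes higher, 1.15% lower and 6.09% without overlap in the lower direction. The difference was -3.45 and -3.49 in replicates 1 and 2 and -1.65 and -1.18 in replicate 3. Without replicate 2 of the G- cells it was -2.33 for Mt1 and -2.15 for Mt2, and neither met the rule. Of the 9 fits that each left out 1 array, Mt1 met it in 2 and Mt2 in 4. Of 11 other settings Mt1 met it in 7, and not with an offset of 50 (-2.8), 75th percentile scaling (-2.8), the arrays of the series alone (SE 0.74) or replicates 1 and 2 alone. Mt2 met it in 9, and not with 75th percentile scaling (-2.7) or the arrays of the series alone (SE 0.68).

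The exporter did not separate the Gsc populations. Slc30a1 was at 8.41, 8.48 and 7.52 in d3 G- cells and at 8.35, 8.52 and 7.79 in d3 G+ cells, and at 8.32, 7.75 and 7.30 in d4 G- cells and 8.34, 8.03 and 7.09 in d4 G+ cells. The difference of G+ from G- was 0.08 at d3 and 0.03 at d4 (SE 0.44 each). At d5 Slc30a1 was at 6.45, 7.08 and 6.03 in G- cells, at 6.83, 7.26 and 5.47 in Glow cells and at 6.92, 7.60 and 5.96 in Ghigh cells, and the difference was 0.15 (SE 0.38). The populations overlapped on each day. The d5 arrays together ran from 5.47 to 7.60, and those of d3 and d4 from 7.09 to 8.52. Mt3, at 8.84 to 9.68 over the sorted arrays of d3 to d5, differed between the Gsc populations by -0.14, 0.05 and 0.01 at d3, d4 and d5.

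**Figure D2:**
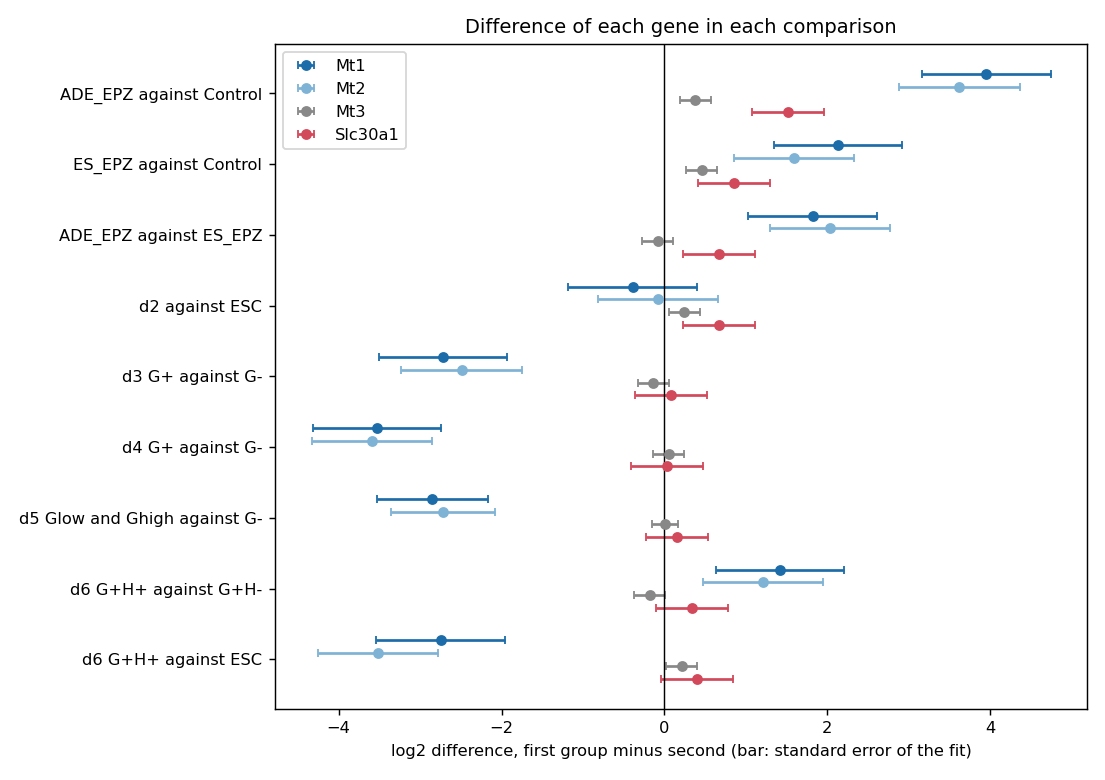
Log2 difference of the first named group from the second (horizontal axis) with the standard error of the fit as bars, for Mt1, Mt2, Mt3 and Slc30a1 in 9 comparisons (vertical axis). Mt1 and Mt2 lie far below 0 between the Gsc populations of d3 to d5, where Slc30a1 lies between 0.03 and 0.15, and all 4 genes lie above 0 in ADE_EPZ and ES_EPZ against Control.

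At d6 Mt1, Mt2 and Slc30a1 were higher again than in the d5 Ghigh cells. Mt1 was at 13.23, 13.15 and 9.52 in G+H- cells and at 14.07, 14.66 and 11.43 in G+H+ cells. Mt2 was at 12.77, 12.81 and 9.70 in G+H- cells and at 13.53, 14.21 and 11.17 in G+H+ cells. Slc30a1 was at 8.46, 8.79 and 7.06 in G+H- cells and at 8.93, 8.74 and 7.67 in G+H+ cells. Every G+H+ array was above every d5 Ghigh array for the 3 genes, as for 20.1% of all genes above background in a group, while replicate 3 of the G+H- cells lay within the Ghigh range for all 3. From d5 Ghigh to d6 G+H+ cells the mean rose by 3.92 for Mt1 (15.2-fold), by 3.63 for Mt2 (12.4-fold) and by 1.62 for Slc30a1 (3.07-fold), and Mt3 changed by -0.21. For Mt1 and Mt2 the rise was smaller in replicate 3, where Mt1 went from 9.96 to 11.43 and Mt2 from 9.76 to 11.17. In replicates 1 and 2 Mt1 went from 8.89 and 9.54 to 14.07 and 14.66. Mt2 went there from 8.89 and 9.37 to 13.53 and 14.21. These steps between days were not fitted and have no SE.

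The presence of RedStar made a smaller difference. G+H+ cells exceeded G+H- cells by 1.42 for Mt1 (SE 0.79), by 1.21 for Mt2 (SE 0.74) and by 0.34 for Slc30a1 (SE 0.44), and the arrays overlapped for each gene. Within a replicate number, from which the populations share their deviations, Mt1 was higher in G+H+ cells by 0.84, 1.51 and 1.91 and Mt2 by 0.76, 1.4 and 1.47. Over replicates 1 and 2 alone the difference was 1.18 for Mt1 and 1.08 for Mt2. Without replicate 3 of the G+H- cells the difference was 0.2 for Mt1 and 0.18 for Mt2, and without replicate 3 of the G+H+ cells 2.4 and 2.11. With the replicate as a block the SE was 0.61 for Mt1 and 0.58 for Mt2. No gene of the array was called in this comparison by limma, 0% in either direction, and 1481 genes had an unadjusted p under 0.05.

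Against ESCs, the metallothioneins of d6 G+H+ cells stayed lower and the exporter did not. The difference was -2.75 for Mt1 (SE 0.79, 6.73-fold) and -3.52 for Mt2 (SE 0.74, 11.5-fold), no array overlapped, and both met the rule for calls. In this comparison 5.85% of genes were called higher and 5.43% lower, and 29.4% had all d6 G+H+ arrays below all ESC arrays. The difference was -1.9 for Mt1 and -2.64 for Mt2 in replicates 1 and 2 and -4.45 and -5.29 in replicate 3, and without replicate 3 of the d6 G+H+ cells alone it was -1.77 for Mt1 and -2.62 for Mt2. Mt1 met the rule in 2 of the 6 fits without 1 array, those without replicate 1 or 2 of the d6 G+H+ cells, and Mt2 in all 6. With the arrays of the series alone Mt1 missed it (SE 0.86), and over replicates 1 and 2 both did. Slc30a1 differed by 0.4 (SE 0.44), which was 0.85 in replicates 1 and 2 and -0.5 in replicate 3. ESCs and d2 cells were not sorted and the later populations were, so that sorting and day cannot be told apart in comparisons with ESCs.

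Part of the pluripotency markers were lower in the Gsc populations in which Mt1 and Mt2 were lower. The mean log2 level of the 9 markers was 11.21 to 11.85 in d3 G- and 10.15 to 10.55 in d3 G+ cells, 11.19 to 11.35 in d4 G- and 9.52 to 10.06 in d4 G+ cells, and 10.53 to 11.31 in d5 G- against 8.96 to 9.64 in d5 Glow and 8.72 to 9.05 in d5 Ghigh cells. Of the 9, 4 were called lower in G+ cells at d3 (Zfp42, Esrrb, Klf2 and Utf1), 5 at d4 and 7 in Glow and Ghigh cells at d5, while 1, Tbx3, was called higher at d3 and d4. At d6 the pluripotency list stood at 8.2 to 8.4 in G+H- and 8.26 to 8.49 in G+H+ cells, below its d5 Ghigh level, while Mt1 and Mt2 were above theirs. In such samples fewer cells with a transcript and less of it per cell cannot be told apart, and the part of remaining ESC-like cells in these differences was not tested.

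EPZ6438 during differentiation was accompanied by higher Mt1, Mt2 and Slc30a1 at d6. Mt1 was at 10.02, 9.95 and 9.89 on the Control arrays and at 14.02, 13.74 and 13.93 on the ADE_EPZ arrays. Mt2 was at 9.74, 9.77 and 9.80 in Control and at 13.63, 13.02 and 13.50 in ADE_EPZ. The groups were far apart with little spread inside them: the SD of the Control arrays was 0.07 for Mt1 and 0.03 for Mt2. The difference was 3.95 for Mt1 (SE 0.79, 15.4-fold) and 3.62 for Mt2 (SE 0.74, 12.3-fold), and both met the rule for calls. The SE carries the wide spread of the untreated groups, and with the arrays of the EPZ6438 series alone it was 0.3 and 0.36. Slc30a1 was at 6.98, 7.49 and 7.23 in Control and at 8.90, 8.21 and 9.15 in ADE_EPZ, a difference of 1.52 (SE 0.44, 2.87-fold). It did not meet the rule, nor in any of the 6 fits without 1 array, where it was 1.32 to 1.79. It met the rule in 4 of 10 other settings, with the replicate number as a block (SE 0.3), with the slide as a random or fixed block and with the arrays of the series alone (SE 0.25). It was under the fold of the rule with an offset of 50 (1.31), without background correction (1.4) and with quantile normalisation within the series (1.49). Mt3 was at 8.26, 8.70 and 8.43 in Control and at 8.82, 8.85 and 8.88 in ADE_EPZ, a difference of 0.38 (SE 0.19). For all 4 genes each ADE_EPZ array was above each Control array. Of all genes 1.95% were called higher and 0.815% lower, and 25% did not overlap in the higher direction.

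EPZ6438 given only before differentiation was followed at d6 by smaller differences of Mt1, Mt2 and Slc30a1 from Control, and by one of similar size for Mt3. Mt1 was at 12.04, 11.33 and 12.88 on the ES_EPZ arrays, Mt2 at 11.37, 10.46 and 12.24, Slc30a1 at 7.83, 8.0 and 8.42, and Mt3 at 8.73, 8.80 and 9.24. Each of these arrays was above every Control array, for Mt3 narrowly. The difference from Control was 2.13 for Mt1 (SE 0.79, 4.37-fold), 1.59 for Mt2 (SE 0.74), 0.85 for Slc30a1 (SE 0.44) and 0.46 for Mt3 (SE 0.19), and none met the rule for calls, which 0.369% of genes met as higher and 0.0676% as lower, with 17.1% not overlapping in the higher direction. With the arrays of the EPZ6438 series alone the SE of these differences was 0.3, 0.36, 0.25 and 0.17 in this order. None met the rule there either. ADE_EPZ exceeded ES_EPZ by 1.82 for Mt1, by 2.03 for Mt2 and by 0.67 for Slc30a1, and the difference was -0.08 for Mt3. The arrays of these regimens did not overlap for Mt1 and Mt2, as for 12.6% of genes in that direction, and did for Slc30a1 and Mt3, and none of the 4 met the rule, against 0.117% of genes higher and 0.0135% lower. The comparisons share their Control, ADE_EPZ or ES_EPZ arrays.

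Each slide of the EPZ6438 series held 1 array of every regimen, though not of the same replicate number. Within the slides ADE_EPZ exceeded Control by 3.72, 3.98 and 4.14 for Mt1, by 3.28, 3.74 and 3.83 for Mt2 and by 1.23, 1.66 and 1.67 for Slc30a1. ES_EPZ exceeded Control within the slides by 1.3, 2.93 and 2.16 for Mt1, by 0.72, 2.48 and 1.57 for Mt2 and by 1.01, 0.93 and 0.6 for Slc30a1. On all 3 slides the order for these genes was Control, ES_EPZ and ADE_EPZ. The EPZ6438 series shares no slide with the untreated series, so that the lower Mt1 and Mt2 of Control cultures than of d6 G+H+ cells cannot be told apart from slide and scan day, or from the sort.

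**Figure D3:**
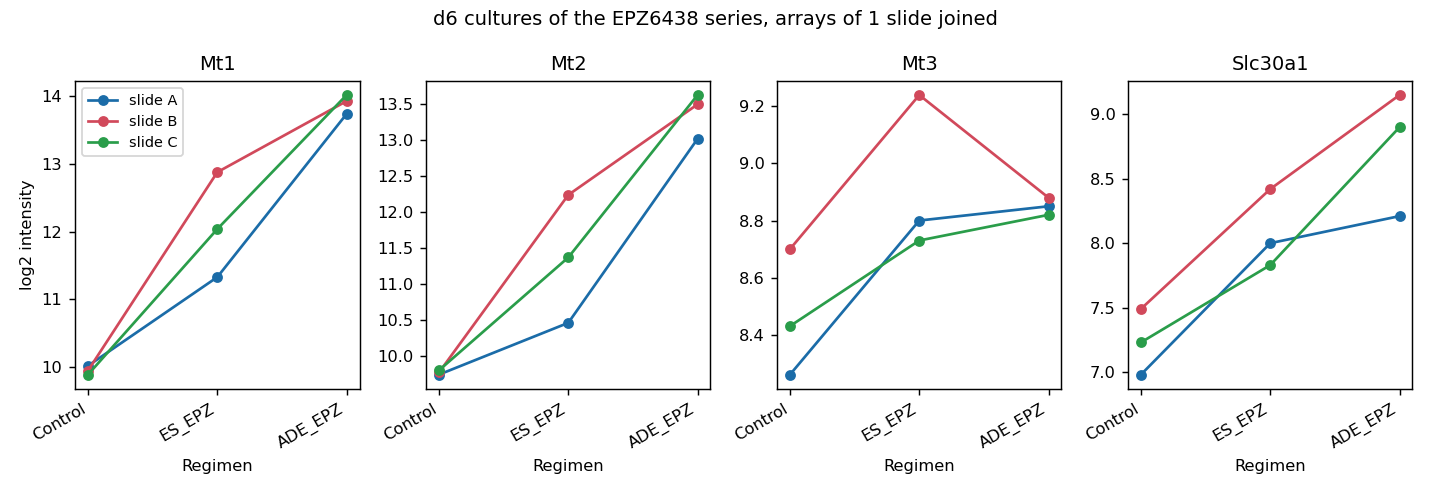
Log2 intensity (vertical axes, 1 panel per gene with its own scale) of the d6 cultures under the 3 regimens (horizontal axis), with a point per array and a line joining the arrays of a slide. Mt1, Mt2 and Slc30a1 climb from Control over ES_EPZ to ADE_EPZ on each slide, and Mt3 is lowest in Control on each.

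Markers of the cell types moved between the same regimens. The mean level of the 9 definitive endoderm markers was 11.91 to 12.19 in Control and 12.87 to 13.17 in ADE_EPZ, with Hhex called higher by 2.23 (SE 0.4, limma adjusted p 2.17e-04). The 9 visceral endoderm markers were at 7.83 to 8.05 and 8.22 to 8.71, with Rhox5 called higher by 1.84 (SE 0.41, adjusted p 0.00217). The 9 pluripotency markers were at 8.65 to 9.15 and 9.08 to 9.54, with Zfp42 called higher by 1.51 (SE 0.34, adjusted p 0.00231) and Tbx3 called lower, at a difference of -3.34 (SE 0.71, adjusted p 0.00137). All 9 markers of the first and the last list were above background on every array of both groups. In the mesoderm list of 8, at 8.73 to 8.96 in Control and 7.81 to 8.28 in ADE_EPZ, Meox1 was called lower at -2.44 (SE 0.44, adjusted p 2.13e-04), and the weaker probe of Kdr was called lower too. In the primitive streak list of 7, at 10.43 to 10.53 in Control and 9.5 to 9.75 in ADE_EPZ, 3 genes were called lower: Mixl1 (-3.34, SE 0.34, adjusted p 1.24e-07), Evx1 (-2.47, SE 0.5, adjusted p 9.16e-04) and Eomes by its weaker probe. The 6 neural ectoderm genes were at 6.04 to 6.44 in Control and 6.79 to 6.95 in ADE_EPZ. Map2 among them was called higher by 1.68 (SE 0.3, limma adjusted p 1.97e-04) and was not well above background on any Control array. The 6 trophoblast genes were at 7.88 to 8.55 in Control and 8.73 to 9.36 in ADE_EPZ, and none was called. In ES_EPZ against Control Mixl1 was called lower too (-1.72, SE 0.34, adjusted p 0.00565). The part of these shifts in the metallothionein difference was not tested.

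Mt1 and Mt2 moved closely together. Over the 14 group means their correlation was 0.99, and the deviations of the 42 arrays from their group means had a correlation of 0.99 too, which is a description over arrays that share slides. The Mt1 and Slc30a1 deviations had a correlation of 0.62, and their group means 0.64. Mt1 and Mt3 had 0.01 over group means and 0.42 over deviations, and the deviations of Mt3 and Slc30a1 had 0.55. The level of Mt1 minus that of Mt2 moved slowly over the course, from -0.67 at d2 (SD 0.18, n = 3) and -0.36 in ESCs to 0.42 in d6 G+H+ cells, 0.52 in ADE_EPZ and 0.73 in ES_EPZ (SD 0.12), and only the movement of this gap can be read, since the probes differ in brightness.

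**Figure D4:**
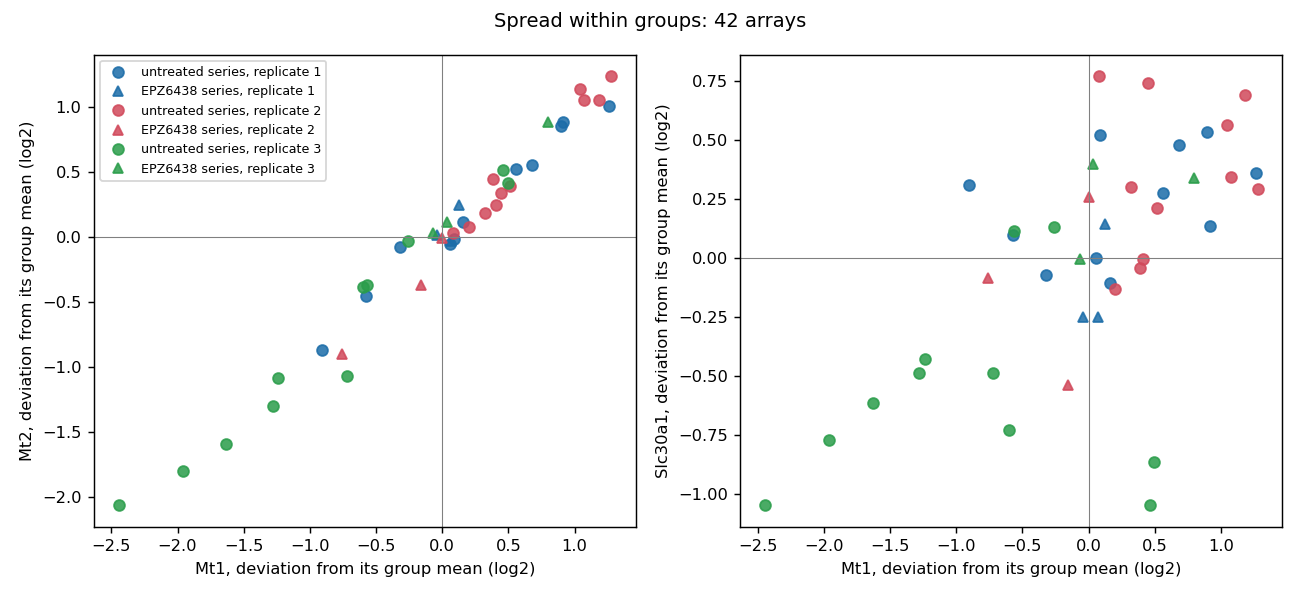
Deviation of each of the 42 arrays from its group mean on the log2 scale, with Mt1 on the horizontal axes and Mt2 (left) or Slc30a1 (right) on the vertical axes, coloured by replicate number, circles for the untreated and triangles for the EPZ6438 series. Mt1 and Mt2 fall on a line (correlation 0.99), Slc30a1 follows more loosely (0.62), and replicate 3 of the untreated groups supplies most of the points at the lower left.

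In the order of group means Mt1 ran from ESC (16.14 ± 0.24, SD, n = 3) and d2 (15.75 ± 0.51) through d3 G- (14.6 ± 1.44), ADE_EPZ (13.9 ± 0.14), d4 G- (13.47 ± 1.14), d6 G+H+ (13.39 ± 1.72), d5 G- (12.56 ± 0.93), ES_EPZ (12.08 ± 0.78), d6 G+H- (11.97 ± 2.12) and d3 G+ (11.88 ± 1.11) to d5 Glow (9.96 ± 0.78), Control (9.96 ± 0.07), d4 G+ (9.93 ± 0.56) and d5 Ghigh (9.46 ± 0.54). In this order neighbours overlapped except d3 G+ and d5 Glow, between which there was a gap. Mt2 spanned 142-fold between its highest and lowest group mean and Mt1 102-fold. For Mt2 the gaps lay between d2 and d3 G- and between ES_EPZ and d4 G+. Slc30a1 spanned 4.71-fold, from 6.52 ± 0.53 in d5 G- and 6.52 ± 0.93 in d5 Glow cells to 8.75 ± 0.48 in ADE_EPZ. Its neighbours in order overlapped throughout. Mt3 spanned 1.69-fold, from 8.47 ± 0.22 in Control to 9.23 ± 0.22 in d5 Ghigh cells, and Control alone stood clear of its neighbour, ESC (8.8 ± 0.13). The orders, and the spans of Slc30a1 and Mt3, run over both series, which share no slide or scan day. Differences between the series in them cannot be told apart from slide, scan day or the sort. The genes whose group means were most like those of Mt1 among 15508 were Mt2, Aplp1 (0.974), Rap1gap (0.971), Grhl2 (0.965) and Caps2 (0.964), and Slc30a1 was in place 1348. Those most like Slc30a1 were Ptp4a1 (0.878), Gtf2e1 (0.877), Ppp1r13b (0.861), Rpe (0.853) and Gna15 (0.852), correlations over 14 means with no test.

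The metal sensor itself and the remaining metallothionein gene differed little. Mtf1 has 3 probes, of which the brightest lay between 7.02 and 7.92 on all arrays and differed by -0.08 between ADE_EPZ and Control (SE 0.13, limma adjusted p 0.869), by 0.25 between d4 G+ and G- (adjusted p 0.412) and by -0.43 between d6 G+H+ and ESC (SE 0.13, adjusted p 0.0105). At d3 its second probe differed by -0.51 (SE 0.15) where the brightest differed by 0.09. Mt4 lay between 5.55 and 6.8 and differed by -0.2 between ADE_EPZ and Control (SE 0.2, adjusted p 0.722). Neither gene was called in any of the 9 comparisons.

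The 25 other genes of zinc handling were described as a list, Mt4 and Mtf1 among them: exporters and vesicle loaders of the Slc30 family and importers of the Slc39 family. In ADE_EPZ against Control 1 of the 25 was called higher and 0 lower, beside 1.95% and 0.815% of all genes. The median difference was 0.01, beside -0.01 over all genes. The called gene was Slc39a4, the intestinal zinc importer, at 14.16 against 12.45, a difference of 1.7 (SE 0.38, limma adjusted p 0.00227). It lost its call when replicate 1 or 3 of Control or of ADE_EPZ was left out. In ES_EPZ against Control none of the 25 was called and the median was -0.03, with Slc39a4 at 0.68 (SE 0.38, adjusted p 0.491). Between the Gsc populations 1 gene was called lower at d3, again Slc39a4, at -1.65 (SE 0.38, adjusted p 0.00595), and 0 at d4 and d5. That call was lost without replicate 3 of either population, without replicate 2 of G- or replicate 1 of G+ cells, and with the arrays of the untreated series alone. Slc39a14, an importer of zinc, manganese and iron, did not reach the fold of the rule at d3 (-1.32, SE 0.16, adjusted p 8.37e-07), d4 (-0.96, adjusted p 1.47e-04) or d5 (-0.82, adjusted p 1.83e-04) and was named after its values were seen. In d6 G+H+ cells against ESCs 3 of the 25 were called higher and 1 lower, beside 5.85% and 5.43% of all genes. The importers Slc39a8, at 4.12 (SE 0.52, adjusted p 9.22e-08), Slc39a11, at 1.92 (SE 0.2, adjusted p 2.32e-09), and Slc39a4, at 1.64 (SE 0.38, adjusted p 9.61e-04), were higher, and Slc39a14 was lower at -2.14 (SE 0.16, adjusted p 1.06e-12). In d2 against ESC, ADE_EPZ against ES_EPZ and d6 G+H+ against G+H- 0 were called by limma.

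**Figure D5:**
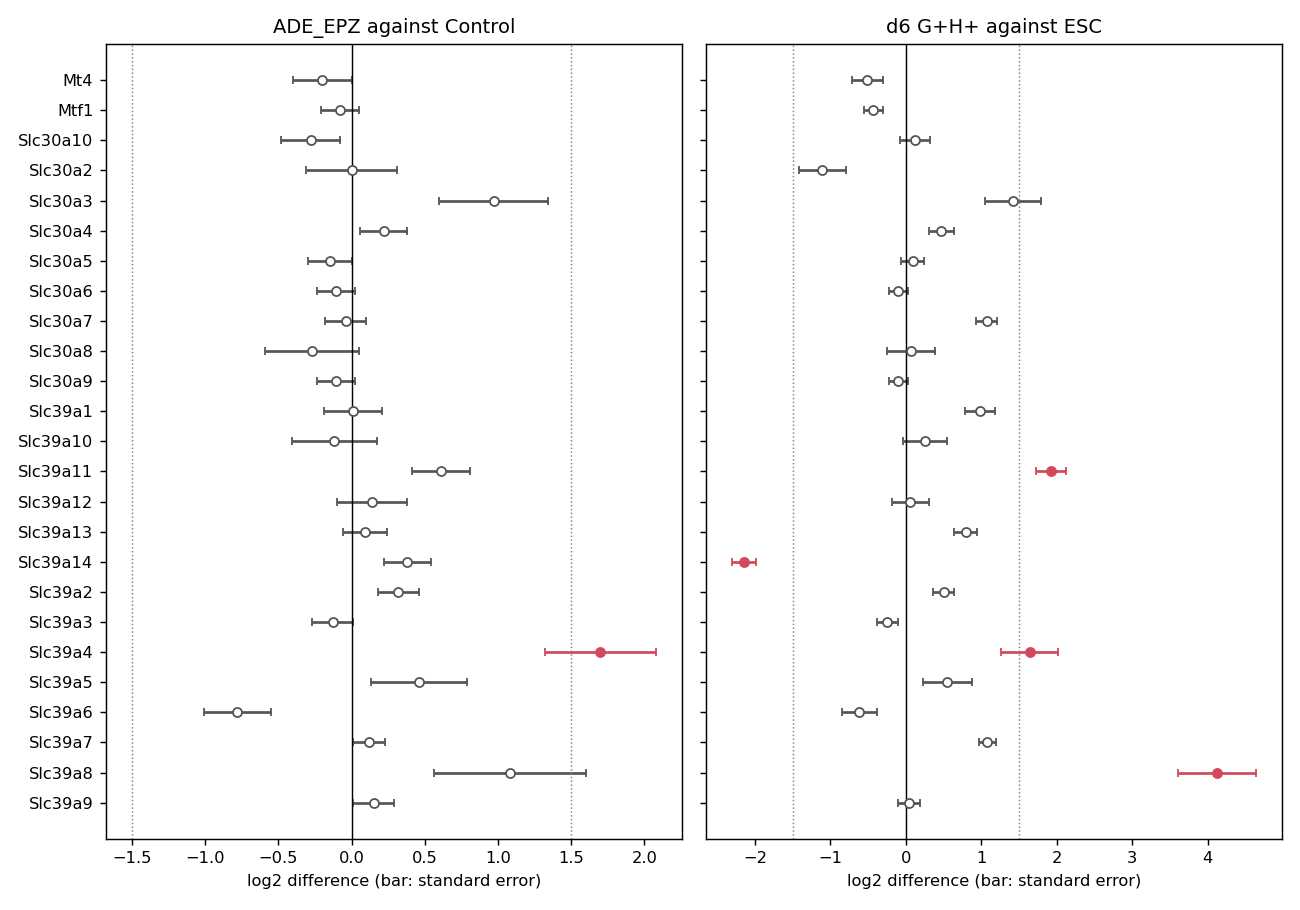
Log2 difference with standard error (horizontal axes, with dotted lines at the fold of the rule for calls) of the 25 other zinc handling genes (vertical axis) in ADE_EPZ against Control (left) and d6 G+H+ against ESC (right), with called genes filled in red. Slc39a4 at 1.7 is the called gene on the left, and Slc39a4, Slc39a8 and Slc39a11 above 0 and Slc39a14 below 0 are called on the right.

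Lists for other inputs known to raise metallothioneins, and for copper and iron, were examined in the same comparisons. In ADE_EPZ against Control, 1 of 18 oxidative stress genes was called higher, Me1, an NADPH-producing malic enzyme, by 1.51 (SE 0.38, limma adjusted p 0.00658). Of 13 measured heat shock genes 1 was called higher, the small heat shock protein gene Hspb1, by 1.64 (SE 0.26, adjusted p 4.68e-05). Of 12 glucocorticoid response genes 1 was called higher, Errfi1, a feedback inhibitor of the EGF receptor, by 1.95 (SE 0.42, adjusted p 0.00157). None of the 18 copper and iron genes was called, and no gene of these 4 lists was called lower. The median differences were 0.07, 0.13, 0.09 and 0.22 for the 4 lists in this order, beside -0.01 over all genes. Of all genes 1.95% were called higher and 0.815% lower. In ES_EPZ against Control none of the genes of these lists was called.

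Between the Gsc populations few genes of these lists passed. Cebpd, a transcription factor gene of the glucocorticoid list, was called lower in G+ cells at d3 (-2, SE 0.28, limma adjusted p 1.10e-05), at d4 (-1.81, SE 0.28, adjusted p 6.41e-05) and in Glow and Ghigh cells at d5 (-2, SE 0.24, adjusted p 1.40e-06). Trf, which encodes the iron carrier transferrin, was called lower at d3 (-2.34, SE 0.21, adjusted p 4.12e-09) and d4 (-1.69, SE 0.21, adjusted p 2.40e-06). Slc40a1, the iron exporter ferroportin, was called lower at d4 (-1.52, SE 0.32, adjusted p 0.00234), and the quinone reductase gene Nqo1 at d5 (-1.7, SE 0.32, adjusted p 6.59e-04). No gene of the 4 lists was called higher in the GFP-positive cells at d3 to d5. Of all genes 1.12%, 1.46% and 1.15% were called lower at d3, d4 and d5.

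From ESCs to d6 G+H+ cells 6 of the 18 oxidative stress genes were called lower and 0 higher, beside 5.43% of all genes called lower. The median of the list was -0.65, beside 0 over all genes. They were Nqo1 (-3.31, SE 0.37, limma adjusted p 6.56e-09), Gclm (-2.87, adjusted p 6.48e-14), a subunit of the enzyme that makes the glutathione precursor, Srxn1 (-2.28, adjusted p 7.65e-08), Gclc (-1.94, adjusted p 1.41e-07), Gsr and Sod2. Nqo1 stood at background on all 3 arrays of the d6 G+H+ cells, so that its value there is only a bound. Of the glucocorticoid list 2 genes were called higher, Zbtb16 (3.19, adjusted p 4.11e-07), likewise above background on 1 ESC array, and Tsc22d3 (2.7, adjusted p 7.43e-11), and 2 lower, Cebpd (-3.38, adjusted p 1.36e-11) and Klf9 (-1.84, adjusted p 1.77e-07). Of the heat shock list Bag3 was called higher (2.68, adjusted p 1.99e-16) and Cryab and Hspb1 lower. Of the copper and iron list 3 were called higher, Heph (4.02, adjusted p 8.61e-12), a copper-dependent iron oxidase that was well above background on 1 of the 3 ESC arrays, Slc31a1 (1.73, adjusted p 5.43e-12), the copper importer, and Slc40a1 (1.65, adjusted p 1.13e-04), and 2 lower, Trf and Tfrc. At d2, where Mt1 and Mt2 overlapped with ESCs, Cryab (-2.85, adjusted p 5.48e-05), Hspb1 (-1.56, adjusted p 1.06e-04) and Dusp1 (-1.73, adjusted p 3.86e-04) were called lower, 2 heat shock genes and 1 of the glucocorticoid list.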

How the data were processed

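Labelled RNA was hybridised to Agilent one-colour mouse arrays. The authors deposited scanner files with median foreground and background intensity per spot, and a value table on the log2 scale, for which their methods give limma's normexp correction (offset 10) followed by quantile normalisation. The deposited log2 values were used, and values recomputed from the intensity columns correlated with them at 0.999985 or more on each array. Spots of a probe were averaged. Probes were named through the 21850 RefSeq accessions, of 22201, held by a GRCm38.p6 gene table, and a gene with several probes was represented by the brightest. Groups and replicate numbers came from the labels.

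In limma 3.58.1 (R 4.3.3, with statmod 1.5.0 for the slide correlation) each of the 14 groups had its own mean and all 42 arrays shared the estimate of spread, and p values were adjusted by Benjamini and Hochberg over all probes. The rule for calls asked of any probe of a gene a log2 difference of 1.5 or more in size and an adjusted p no higher than 0.01, the thresholds of the study's methods. The procedure was tested on simulated data. Members, lists and the rule for named genes (the members, Mt4 and Mtf1, at most 4 called genes per list and comparison, and the 5 genes most like Mt1 and Slc30a1) were chosen with earlier results of these data known. Same-numbered samples deviated together (all 3 correlations over 0.1) in ADE_EPZ against Control (0.11 to 0.25), ADE_EPZ against ES_EPZ (0.28 to 0.49), d3 (0.15 to 0.7), d4 (0.32 to 0.54), d5 (0.28 to 0.72) and the d6 populations (0.58 to 0.78). They did not in ES_EPZ against Control, d2 against ESC and d6 G+H+ against ESC. The main fit left this pairing out, so SEs and calls are unpaired unless a block is named. The paired fit was the one with the replicate number as a block. Among the members, only Mt1 and Mt2 at d3 and Slc30a1 in ADE_EPZ against Control met the rule in it and not in the main fit. The number of arrays, 3 per group, limits the precision. Promoters were searched in Python 3.11.15.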

Additional observations from a re-analysis of the deposited data

How the results depend on the processing

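The differences of the 4 members were recomputed with other background corrections and normalisations, from the scanner files and on probes above background. They were also recomputed within a series, with slide or replicate blocks and without each array. All 612 values moved by less than 1 SD of the replicates, but many of them could not have moved further. Leaving out 1 array of groups this small cannot take a difference past that limit. The fits within a series and with the replicate block keep the difference by construction. The limit is therefore no test of stability. Without 1 array, the Mt1 difference of d6 G+H+ from G+H- ran from 0.2 to 2.4. At d4 Mt1 met the rule in 2 of 6 such fits. Each member has 1 probe, so a mean over probes changes nothing. Counts of called genes moved with the settings. With a normexp offset of 50 they were 14 for ADE_EPZ against ES_EPZ (29 in the fit as described), 269 at d3 (410), 325 at d4 (507) and 211 at d5 (370), and without background correction 19 for ADE_EPZ against ES_EPZ. For ES_EPZ against Control (97) the count was 48 with 75th percentile scaling, 18 with the arrays of the series alone, 147 with the replicate block and 165 with slide as a random block. With the replicate block 45 genes were called for ADE_EPZ against ES_EPZ, and the paired fit otherwise kept the counts within 1.5 times. With only replicates 1 and 2, a choice made after seeing the data, 283 were called at d4. The zinc handling list at d3 had 0 calls in place of 1 with 75th percentile scaling, with the arrays of the series alone and with only replicates 1 and 2.

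Leaving out 1 array gave 14 to 222 called genes for ES_EPZ against Control, 22 to 51 for ADE_EPZ against ES_EPZ, 288 to 595 at d4, 247 to 597 at d5 and 0 to 3 for d6 G+H+ against G+H-, where 0 were called in the full fit, and 0 to 1 genes of the zinc handling list for ADE_EPZ against Control and at d3. The lowest counts of ES_EPZ against Control came without ES_EPZ replicate 3 and the highest without ES_EPZ replicate 2. The cause of these moves was not tested. The members were above background on all arrays, but the handling of background mattered for Slc30a1. Its difference of ADE_EPZ from Control was 1.52 in the fit as described. It was 1.31 with an offset of 50 and 1.4 without background correction, both under the fold of the rule. The lowest Slc30a1 value, 5.47 on a d5 Glow array, lay near the array medians of 5.49 to 5.53.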
